A study of Homo sapiens with 2 samples.

Results

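Retinoic acid is a small signal made from vitamin A that drives many cell types, embryonic stem cells among them, out of the pluripotent state and towards neural fates. Enzymes such as ALDH1A2 make it, CRABP2 carries it to the nucleus, and the receptors RARA, RARB and RARG bind it as partners of RXRA or RXRB on DNA. The CYP26 enzymes break it down, and some of these genes are themselves switched on by the hormone, through response elements in their promoters. The 10 genes were chosen by name, out of 15100 autosomal protein-coding genes with a start in the promoter table used. They are receptors (RARA, RARB, RARG, RXRA, RXRB), a synthesis enzyme (ALDH1A2), a binding protein (CRABP2) and catabolic enzymes (CYP26A1, CYP26B1, CYP26C1). Each was taken from its RefSeq interval extended by 10 kb on each side, and the question was how methylated and how accessible it was before any differentiation began.

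ATAC-Me, in which a transposase tags open chromatin and the tagged fragments are then converted to read their methylation, was run on H9 cells, an established line of human embryonic stem cells. There was 1 group of 2 replicates, untreated H9 cells kept on Matrigel in mTeSR medium, so no retinoid was given to any sample and no later time was analysed here. All values are from this 1 line, and the labels do not say whether the replicates were separate cultures, so the spread between them, and any p-value that compares them, may be technical. The replicates held 29270697 and 52758656 CpG reads on chromosomes 1 to 22 and X, and the authors' peak list held 46980 accessible regions for the group. Inside autosomal peaks 2.82% and 3.51% of CpG reads were methylated, and outside them 61.1% and 70.03%. Listed starts of pluripotency markers were found for 5 of 8 genes, and all 6 of these starts had a peak, at NANOG, SOX2, ZFP42, CRIPTO and DNMT3B. Of these the start of DNMT3B was 46.8% ± 4.08 methylated (SD, n = 2) and the others were under 20%. The starts of 3 neural genes, 2 mesoderm genes and VIM, a fibroblast marker, also had peaks at least once, while GATA6, an endoderm marker, had none. All 16 measured starts of those other lineages were under 20% methylated, so start methylation by itself did not set the cell types apart.

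The 10 genes have 19 listed transcription starts, numbered here along each gene from its outermost start. The methylation of a start is the share of methylated reads over all CpGs within 500 bp, and a start counted as measured with at least 20 such reads in each replicate. A read that covers several CpGs is counted at each, so intervals and limits cover counting error only and are too narrow, and p-values are too small. A start has a peak where a summit of the authors' list lies within 1000 bp. Of the 19 starts 14 were measured, in 9 genes.

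Some sequences at these starts bear on how the values can be read. The receptor pair binds well to direct repeats of a hexamer spaced by 5 bases, called DR5 elements. The promoters, taken as 250 bases before to 50 after each start, were searched on both strands for a pair of such hexamers in the same direction, each spelled AGGTCA, the usual form, or one of the variants known as GGGTCA, and further AGTTCA, and further GGTTCA, with any 5 bases between them. With 5 bases between the hexamers the search found 2 such elements in the member promoters. Of all 21155 promoters 16 held 1 each, or 0.0756%. The search was also run with 1 and with 2 bases between the hexamers. Of all promoters 29 and 8 then held a pair, and 0 of the 19 member promoters did at either spacing. Both member elements are spelled only with the variants AGTTCA and GGTTCA, so finding them rests on the variants allowed. The share of all promoters is therefore given as a description and is no test of the members. The elements lie at start 3 of RARB, 53 to 37 bp before it (chr3:25428210-25428226, plus strand), and at start 2 of CYP26A1, 90 to 74 bp before it (chr10:93073803-93073819, minus strand). They are shown first by themselves, with the hexamers in capitals, and then in capitals within their promoters (chr3:25428013-25428312 and chr10:93073643-93073942, both plus strand). All sequences are from RefSeq, GRCh38.p14, written 5′ to 3′.
RARB start 3 element: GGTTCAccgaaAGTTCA
CYP26A1 start 2 element: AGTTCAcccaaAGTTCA
RARB start 3 promoter: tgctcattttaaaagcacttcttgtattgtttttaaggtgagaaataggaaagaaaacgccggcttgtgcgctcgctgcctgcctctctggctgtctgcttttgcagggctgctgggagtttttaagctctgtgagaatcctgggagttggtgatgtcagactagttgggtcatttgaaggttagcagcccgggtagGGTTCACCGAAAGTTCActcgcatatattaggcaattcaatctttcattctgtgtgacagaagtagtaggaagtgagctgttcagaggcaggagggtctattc
CYP26A1 start 2 promoter: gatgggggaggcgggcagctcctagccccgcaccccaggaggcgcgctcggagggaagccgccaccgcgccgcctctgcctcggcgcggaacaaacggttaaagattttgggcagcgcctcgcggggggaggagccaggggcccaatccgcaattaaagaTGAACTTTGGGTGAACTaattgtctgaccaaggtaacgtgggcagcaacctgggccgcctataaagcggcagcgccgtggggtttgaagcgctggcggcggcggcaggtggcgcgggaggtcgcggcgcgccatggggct
The element at CYP26A1 reads along the minus strand, so the promoter above, given on the plus strand, holds its reverse complement. A match to these letters is a description of the sequence and not evidence of binding.

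A further pair of promoters, with the CG dinucleotides in capitals, shows the range of CpG content at starts that had no peak. RXRA start 1 (chr9:134326205-134326504, plus strand) has 65 CpGs in these 300 bases and 84.0% G and C, and CYP26C1 (chr10:93060548-93060847, plus strand) has 29 CpGs and 66.0% G and C.
RXRA start 1 promoter: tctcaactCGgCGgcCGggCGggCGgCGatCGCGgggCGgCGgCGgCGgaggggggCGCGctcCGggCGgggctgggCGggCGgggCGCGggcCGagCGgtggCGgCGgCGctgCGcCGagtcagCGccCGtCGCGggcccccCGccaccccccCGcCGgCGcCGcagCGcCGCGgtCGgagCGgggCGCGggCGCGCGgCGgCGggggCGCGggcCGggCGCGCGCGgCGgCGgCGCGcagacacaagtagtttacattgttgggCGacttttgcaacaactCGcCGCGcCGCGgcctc
CYP26C1 promoter: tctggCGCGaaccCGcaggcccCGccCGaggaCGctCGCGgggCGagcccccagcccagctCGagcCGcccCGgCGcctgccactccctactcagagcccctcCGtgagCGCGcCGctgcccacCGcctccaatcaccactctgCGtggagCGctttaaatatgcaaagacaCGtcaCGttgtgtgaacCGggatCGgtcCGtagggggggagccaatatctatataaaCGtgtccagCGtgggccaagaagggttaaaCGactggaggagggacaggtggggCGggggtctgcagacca

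Most measured starts of the pathway were unmethylated, and 7 of the 14 lay at a peak. Of the 14 measured starts 12 were under 20% in both replicates, where 89.9% of all 15712 measured starts and 92.3% of those with at least 20 CpGs were, and none was over 80% in both, where 2.67% of all were. A share near this background is not a result about the pathway. The median over the 14 starts was 0.955% and 1.99% in the replicates, a mean of 1.47% ± 0.731, and over all measured starts it was 1.17% ± 0.700 (SD, n = 2). A peak lay at 7 of the 19 starts, where 60.8% of all listed starts had one, and these 7 were all measured and under 20%. Among measured starts 7 of 14 had a peak, where 81.1% of all did. The 5 unmethylated starts without a peak were RARB start 1, RXRA start 1, both starts of CYP26A1 and the start of CYP26B1. Such starts made up 12.9% of all 14121 unmethylated starts and 11.6% of all measured ones. The members were picked by hand and are few, so no test was made of these shares.

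**Figure D1:**
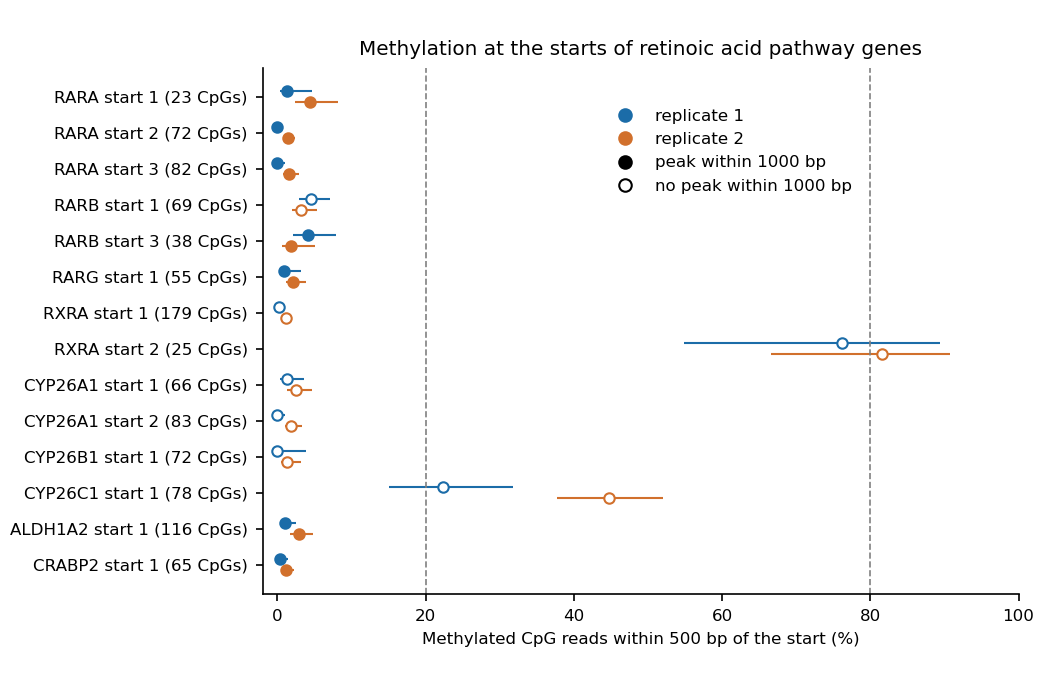
Methylation at the 14 measured starts of the retinoic acid pathway genes. The horizontal axis is the percentage of methylated CpG reads within 500 bp of the start, points are the replicates with 95% Wilson intervals, filled where a peak summit lies within 1000 bp and open where none does, and dashed lines mark 20% and 80%. In both replicates 12 starts lie under 20%, while CYP26C1 and RXRA start 2 lie above it.

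Read depth differed with accessibility, which touches the starts without a peak. Over all measured starts those with a peak had a median of 9.66 and 13.5 reads per CpG in the replicates, and those without had 2.15 and 3.83. The members had a median of 4.23 and 6.38. Of the unmethylated members without a peak CYP26B1 had 1.32 and 4.32 reads per CpG, RXRA start 1 had 2.92 and 8.45, CYP26A1 start 1 had 3.64 and 5.52, CYP26A1 start 2 had 4.66 and 6.60, and RARB start 1 had 5.68 and 6.35. ALDH1A2 start 1, which had a peak, had 3.41 and 4.16, but its peak lies outside the 500 bp in which these reads were counted. That peak held 380 and 368 reads over 33 CpGs. RARB start 3, whose peak lies within those 500 bp, had 5.11 and 4.39, less than RARB start 1 without a peak. Among the members depth and the call of a peak thus did not always go together. An absent peak does not by itself show closed chromatin. The part of depth in the peak counts was not tested.

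RARA, the most broadly expressed of the retinoic acid receptors, was the member with the most accessible starts. All 3 of its starts, on the plus strand of chromosome 17 at 40309180, 40318245 and 40342166, were unmethylated and had a peak. Start 1 read 1.33% of 150 reads in replicate 1 and 4.43% of 203 reads in replicate 2, a mean of 2.88% ± 2.19 (SD, n = 2). Start 2 read 0% of 635 reads, which allows up to 0.472%, and 1.40% of 1003 reads. Start 3 read 0% of 362 reads, which allows up to 0.829%, and 1.52% of 525 reads. These values are all near the bottom of the scale, yet at start 2 the replicates differed by more than counting error (Fisher's exact test, two-sided, Benjamini-Hochberg adjusted over 15712 starts, adjusted p = 0.00981). Such differences were called at 28.0% of all measured starts and at 3 of the 14 member starts. Replicate 2 read higher at 12 of the 14, and at 13177 of all 15712 measured starts. The strongest of the 3 peaks was at start 2, with a signal of 1236 in the caller's own unit, above 80.7% of autosomal peaks in the list. The peaks at starts 1 and 3 had signals of 447 and 351.

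RARB, a receptor that retinoic acid induces in many cells, was split between its starts. Start 1, at 24829321 on the plus strand of chromosome 3, read 4.59% of 392 reads and 3.20% of 438 reads, a mean of 3.89% ± 0.987 (SD, n = 2). It had no peak, and the nearest summit was 55301 bp away. Start 3, at 25428263, is the one with the DR5 element printed above. It read 4.12% of 194 reads and 1.80% of 167 reads, a mean of 2.96% ± 1.65 (SD, n = 2), and its peak summit lay 63 bp upstream. Starts 2 and 4, at 25340802 and 25458310, are CpG-poor, with 5 and 9 CpGs within 500 bp. They had at most 4 reads in a replicate and were not measured, so whether they are methylated was not detectable at this depth.

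The DR5 element of RARB lay inside an accessible, unmethylated region. The peak over it (chr3:25428075-25428393) had a signal of 573, and its CpGs read 0% of 97 reads, which allows up to 3.09%, and 1.05% of 95 reads. The CpG within the element itself, between the hexamers, was methylated in 0 of 19 reads in replicate 1, which allows up to 15.8%, and in 1 of 16 reads in replicate 2. Within 150 bp of the element 0 of 84 reads, which allows up to 3.57%, and 1 of 86 reads were methylated. Only 500 bp on each side of the start stayed under 20% in both replicates, counted in 500 bp bins, among the shorter such stretches of the members.

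RARG and the RXR genes, the partners that bind DNA with every retinoic acid receptor, gave unlike pictures. RARG, at 53232209 on the minus strand of chromosome 12, read 0.897% of 223 reads and 2.15% of 511 reads, a mean of 1.52% ± 0.888 (SD, n = 2). Its peak was weak, with a signal of 272, above 15.4% of autosomal peaks. RXRA start 1, at 134326455 on the plus strand of chromosome 9, was among the lowest of the members although the nearest peak summit was 50894 bp away. It read 0.191% of 523 reads and 1.12% of 1513 reads over 179 CpGs, a mean of 0.657% ± 0.659 (SD, n = 2). RXRA start 2, at 134379295, was the most methylated measured start, at 76.2% of 21 reads and 81.6% of 38 reads, with Wilson intervals of 54.9% to 89.4% and 66.6% to 90.8%. RXRB gave no value, since no read was recorded in either replicate at any of the 637 CpGs of the gene and its flanks. The gene lies in a stretch without a single read (chr6:32997662-33221882, 224221 bp) that holds 2804 CpGs and the starts of 8 genes. The absence of RXRB from the results is therefore a gap in the tables and says nothing about its chromatin.

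ALDH1A2, the main enzyme of retinoic acid synthesis in the embryo, and CRABP2, the protein that hands the hormone to the receptors, were unmethylated with a peak. ALDH1A2 start 1, at 58065711 on the minus strand of chromosome 15, read 1.01% of 395 reads and 2.90% of 482 reads, a mean of 1.96% ± 1.34 (SD, n = 2). Its peak had a signal of 545, with the summit 764 bp upstream of the start. Start 2, at 58014023 within the gene, was methylated in 13 of 13 and 12 of 12 reads, too few to count as measured. CRABP2, at 156705784 on the minus strand of chromosome 1, read 0.393% of 509 reads and 1.13% of 705 reads, a mean of 0.764% ± 0.525 (SD, n = 2). It had the strongest start peak outside RARA, with a signal of 1090.

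The CYP26 enzymes, which clear retinoic acid and limit its range, had no peak at any of their 4 starts, as RXRA had none at its 2. CYP26A1 starts 1 and 2, at 93073475 and 93073893 on the plus strand of chromosome 10, lie 418 bp apart and share CpGs, so they are not separate measurements. Start 1 read 1.25% of 240 reads and 2.47% of 364 reads, a mean of 1.86% ± 0.864 (SD, n = 2). Start 2 read 0% of 387 reads, which allows up to 0.775%, and 1.82% of 548 reads, and the replicates differed (Fisher's exact test, adjusted p = 0.0299). That call was lost within 250 bp (Fisher's exact test, adjusted p = 0.197) and within 1000 bp (adjusted p = 0.0522). CYP26B1, at 72147862 on the minus strand of chromosome 2, read 0% of 95 reads, which allows up to 3.16%, and 1.29% of 311 reads. Both genes were thus unmethylated at their starts, and their nearest summits lay 1521 and 2319 bp away. With summits allowed within 2000 bp both starts of CYP26A1 would count as having a peak, and 9 of the 19 member starts in all.

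The DR5 element of CYP26A1 was unmethylated around it but was not under a listed peak. It holds no CpG of its own. Within 150 bp of it 0 of 133 reads, which allows up to 2.26%, and 2 of 168 reads were methylated. These are summed over 35 CpGs with at most 7 reads at any CpG in replicate 1, so few fragments were seen and the limit is too narrow. At both DR5 elements almost all reads over the flanking CpGs were therefore unmethylated, and the elements differed in that the one at RARB lay under a peak. Of the 16 promoters with such an element 9 were measured, and 7 of these were under 20%, where 89.9% of all measured starts were. A peak lay at 6 of the 16, where 60.8% of all listed starts had one. These promoters are few, and no test was made of the shares.

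CYP26C1 stood apart from the other catabolic genes. Its start, at 93060798 on the plus strand of chromosome 10, read 22.3% of 94 reads in replicate 1 and 44.8% of 183 reads in replicate 2, a mean of 33.6% ± 15.9 (SD, n = 2). The Wilson intervals, 15.1% to 31.8% and 37.8% to 52.05%, did not overlap, and the replicates differed by Fisher's exact test (adjusted p = 0.00265). The difference was also called within 250 bp of the start, at 6.12% and 36.5% (Fisher's exact test, adjusted p = 0.00251), but not within 1000 bp, at 34.5% and 41.3% (adjusted p = 0.33). Methylation was highest upstream, at 54.8% and 71.2% from 500 to 250 bp before the start. Just past the start it was 0% of 8 reads, which allows up to 37.5%, and 26.9% of 26 reads. In cell populations such as these a middle level can come from a share of cells, of gene copies or of single CpGs, which cannot be told apart here. Only 2 of the 78 CpGs had at least 3 reads in both replicates, so single CpGs could not be compared between them. With so few reads the level of CYP26C1 is known only as above that of the other CYP26 starts in both replicates.

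**Figure D2:**
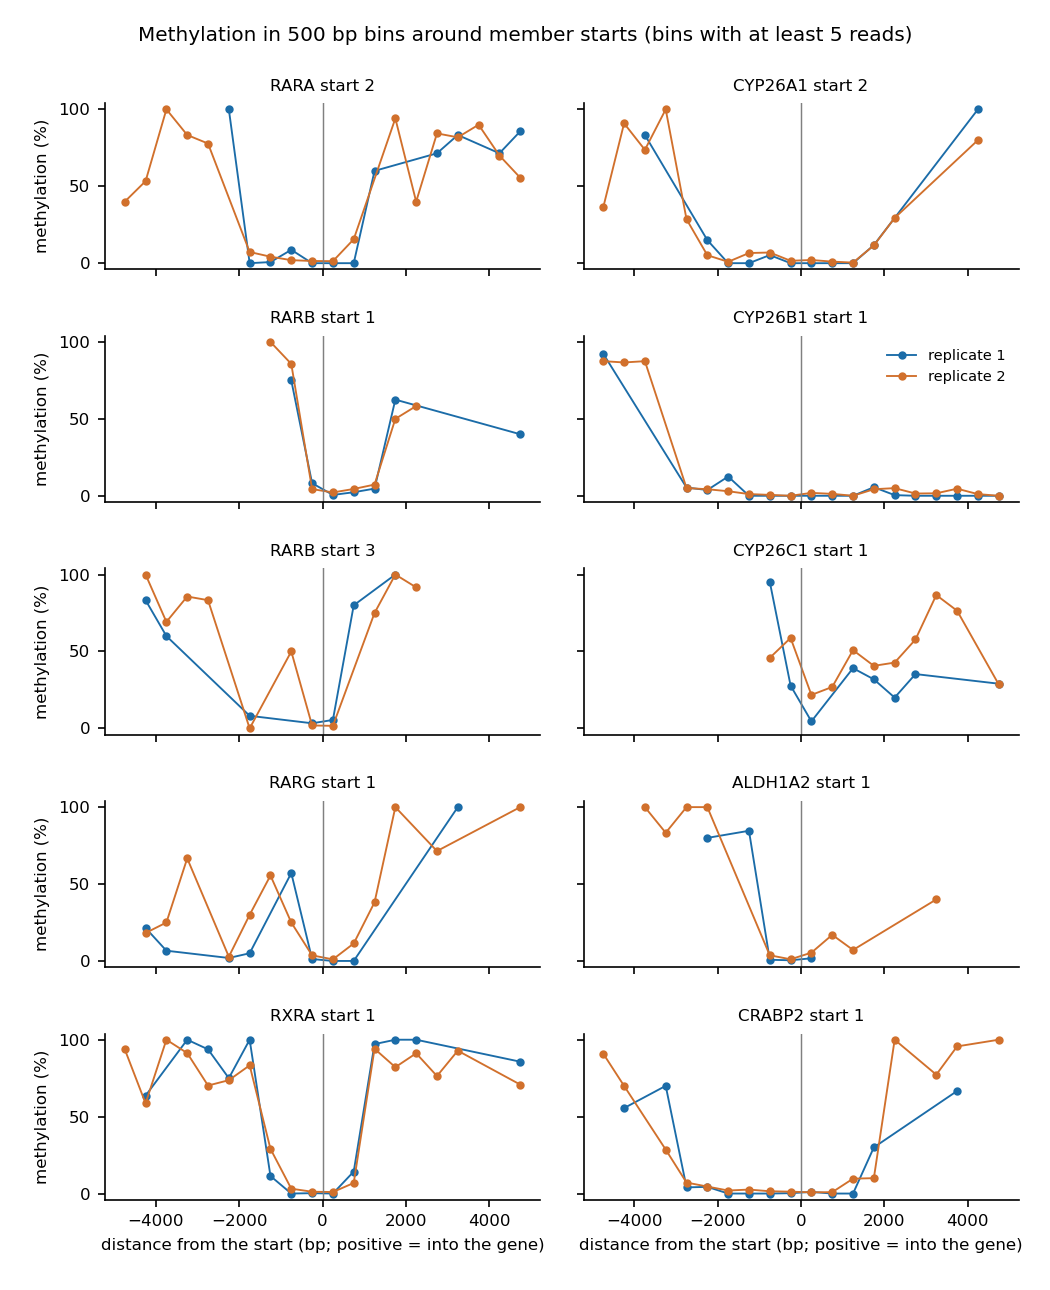
Methylation in 500 bp bins from 5000 bp before to 5000 bp after 10 member starts, with the vertical axis in percent and a line per replicate; bins with fewer than 5 reads in a replicate are left out. Most panels show a trough at the start between methylated flanks, wide at CYP26B1 and CRABP2 and narrow at RARB start 3. At CYP26C1 both replicates fall just past the start, to 4.55% and 21.7% in the first 500 bp, and rise again further in.

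The unmethylated stretch around a start differed widely in length. Counted in 500 bp bins with at least 5 reads and under 20% in both replicates, it ran 3000 bp upstream and 5000 bp downstream at CYP26B1, the longest of the members. CRABP2 followed with 3000 bp upstream and 1500 bp downstream, level with CYP26A1 start 1 at 2000 bp and 2500 bp. The stretch was 2000 bp and 1000 bp at RARA start 2, 1000 bp on each side at RXRA start 1, 1000 bp and 500 bp at ALDH1A2, 500 bp and 1500 bp at RARB start 1, and 500 bp and 1000 bp at RARG. It was 0 bp on both sides at CYP26C1. The first bin that misses the read minimum also ends the stretch, so low depth can shorten these lengths. The longest stretches include starts with a peak (CRABP2) and without one (CYP26B1, CYP26A1).

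CYP26C1 and CYP26A1 are neighbours on chromosome 10, read in the same direction, and their starts differed in methylation over a short distance. The end of CYP26C1 lies 8742 bp past its start, the gap to CYP26A1 start 1 is 3934 bp, and the start itself is 12677 bp from that of CYP26C1. The 1 kb bins from 11 to 15 kb past the CYP26C1 start held 0.725% to 2.30% methylation (mean of the replicates). They cover the gap's end and the first part of CYP26A1, with its starts. The bins within CYP26C1 at 5 to 6 kb and 7 to 8 kb were also low, at 3.32% ± 0.623 and 2.64% ± 1.21 (SD, n = 2). The other bins that begin within CYP26C1 held 13.9% to 74.0%, the highest with 3 reads in replicate 1. The only peak of the locus lies in the gap, 1521 bp before CYP26A1 start 1 (chr10:93071855-93072179), with a low signal of 212, and read 0% of 100 reads, which allows up to 3.0%, and 1.05% of 190 reads. It is counted once, although it falls within 10 kb of both genes.

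**Figure D3:**
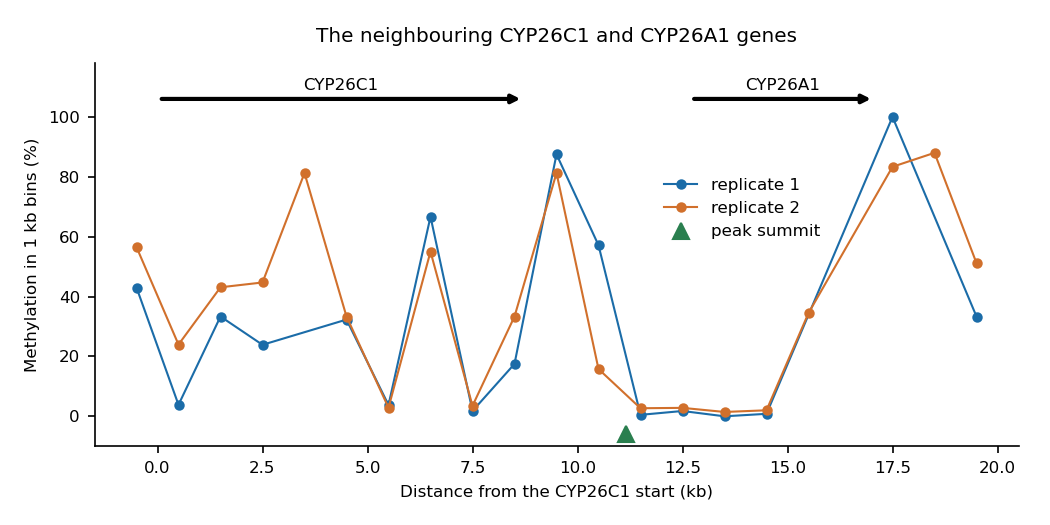
Methylation in 1 kb bins across CYP26C1 and CYP26A1, by distance in kb from the CYP26C1 start, with a line per replicate, arrows for the genes and a triangle for the peak summit; bins with fewer than 5 reads in a replicate are left out. Both replicates stay near 0% between 11 and 15 kb, around the starts of CYP26A1, and are higher over most of CYP26C1.

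Starts were less methylated than gene bodies at most members, but the gap was small where the body itself was low. The body runs from 2000 bp past the outermost start to the other end of the gene, and 7 members had enough reads for both. In 6 of the 7 the start was lower in both replicates, where 95.1% of all 10108 genes were. RXRA had 0.657% at the start and 86.1% ± 0.0361 in the body, ALDH1A2 had 1.96% and 80.0% ± 5.25, and RARB had 3.89% and 76.6% ± 6.26 (SD, n = 2). Low bodies were found in RARG (8.21% ± 0.395), CYP26C1 (15.4% ± 8.24), CYP26B1 (20.1% ± 4.84) and RARA (23.2% ± 8.75). A body also holds any later starts of its gene. In RARA the windows of the unmethylated starts 2 and 3 held 635 and 362 of 2162 body reads in replicate 1. In replicate 2 they held 1003 and 525 of 4177. CYP26C1 was the exception in direction, with a start above its body by 18.2 ± 7.65 percentage points (SD, n = 2), or by 5.94 points with the start read within 250 bp. The median of start minus body over the 7 genes was −16.7 and −25.0 points in the replicates, a mean of −20.8 ± 5.85, and over all genes it was −80.2 ± 3.40 (SD, n = 2). RARA, RARG and CYP26B1 hold 5, 5 and 3 peaks inside genes of 48464, 21641 and 18625 bp. RARB and RXRA, with high bodies, hold 7 and 1 in genes of 768612 and 114131 bp. CYP26C1, with a low body, and ALDH1A2, with a high one, hold 0. The median gap of the members was −34.4 points with CpGs inside peaks left out and −64.5 points with bodies counted from 5000 bp, and that of CYP26B1 moved to −64.5 with it, so its size rests on where the body begins. An exact sign-flip test of 2 replicates cannot go below 0.5, so no p is given.

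**Figure D4:**
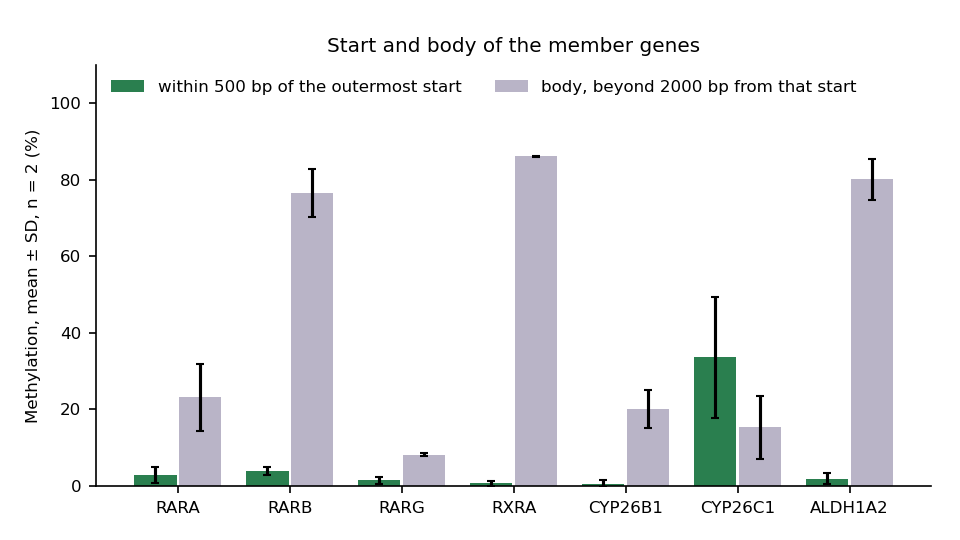
Methylation at the outermost start and in the body of the 7 members with enough reads for both. The vertical axis is the percentage of methylated CpG reads, bars are means of 2 replicates and error bars the SD. RARB, RXRA and ALDH1A2 have bodies above 70%, the other 4 lie below 25%, and CYP26C1 alone has a start above its body.

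Accessible regions of the pathway reached well beyond the starts. The genes and their 10 kb flanks held 37 peaks, 21 inside the genes and 16 in the flanks, with 8 each in RARA and RARG, 7 in RARB, 5 in CRABP2, 4 in CYP26B1, 3 in RXRA, 1 in ALDH1A2, 1 shared by CYP26A1 and CYP26C1, and 0 in RXRB. Of these 35 reached the minimum of 10 CpG reads per replicate, and 32 of the 35 were under 20% in both, where 70.2% of all 40703 such peaks were. Their median methylation was 1.92%, against 4.17% over all peaks, and their median signal was 494, against 541. All 7 peaks at starts were low, from 0.526% to 2.67%, as were 25 of the 28 others, which ran from 0.404% to 59.0%. The replicates differed at 1 of the 35 peaks, where 7.89% of all were called. That peak, in the body of CYP26B1 2839 bp past its start, read 0% of 480 reads, which allows up to 0.625%, and 1.69% of 590 reads (Fisher's exact test, adjusted p = 0.0397), and the call was lost once the overall shift between the libraries was taken out.

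The strongest peak lay deep inside RARB. It spans 788 bp (chr3:25155685-25156472), between starts 1 and 2, and its signal of 3176 was above 98.1% of autosomal peaks. With 4 CpGs it is CpG-poor, and it read 0% of 126 reads, which allows up to 2.38%, and 1.85% of 54 reads. The next strongest lay 12600 bp past the start of CRABP2, beyond the gene's other end (chr1:156692846-156693501), with a signal of 2060, and read 0% of 218 reads, which allows up to 1.38%, and 3.19% of 313 reads. In RARG a pair of peaks 10610 and 11184 bp into the gene, with 37 and 48 CpGs, were stronger than the peak at its listed start. Their signals were 790 and 1053, and their methylation was 0.404% ± 0.571 and 1.12% ± 0.503 (SD, n = 2). No start of RARG is listed there in the promoter table. Stronger still was a RARG peak 15087 bp into the gene, nearer to the start of ITGB7, with a signal of 1218. The most accessible places of RARB and RARG were therefore not their listed starts.

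The methylated exception was in RXRA. A peak 40589 bp past start 2, inside the gene (chr9:134419636-134420015), had a signal of 664 and read 60.8% of 74 reads and 57.3% of 124 reads, a mean of 59.0% ± 2.51 (SD, n = 2). The replicates did not differ there beyond counting error (Fisher's exact test, adjusted p = 0.95). The other peaks not under 20% in both lay in RARA, 3597 bp past start 3, at 20.9% and 10.5%, and 12972 bp past it, at 15.4% and 20.7%. Each of these lies at the limit, with 1 replicate on either side. A peak in RARB with 1 CpG read 66.7% of 9 reads and 56.2% of 16 reads and was not counted, and another in RARB held no CpG. By distance to a listed start 5 of the 37 peaks lay nearer to another gene: 1 in RARB to TOP2B, 2 in RARG to ITGB7, 1 before RARG to LOC122455340 and 1 near CRABP2 to NES.

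**Figure D5:**
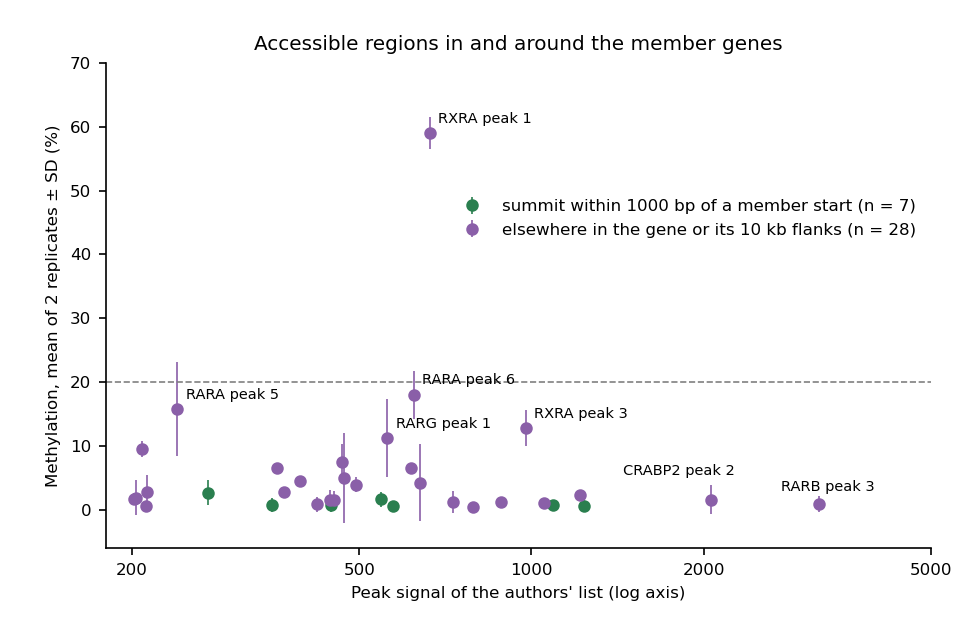
Signal and methylation of the 35 peaks in and around the members that reached 10 CpG reads per replicate. The horizontal axis is the authors' peak signal on a log scale, the vertical axis the mean methylation in percent with the SD of 2 replicates, and green points are the 7 peaks at starts, purple points the 28 others. All but RXRA peak 1, at 59.0%, lie under 20% on average, and the strongest, RARB peak 3, is near 0%.

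Other genes of the retinoid system were described in the same way. Of 34 listed, 24 had a start in the promoter table, and the other 10 were not analysed here. Their 42 starts include 32 that were measured, in 22 genes, of which 29 were under 20% in both replicates, where 89.9% of all measured starts were, and 19 of the 42 had a peak, where 60.8% of all listed starts did. Their median was 1.75% ± 0.577 (SD, n = 2). The remaining receptor, RXRG, read 4.60% ± 0.536 and had a peak. Among synthesis and storage genes DHRS3, a retinal reductase, was lowest at its start 2 (0.467%), close to LRAT, which esterifies retinol (0.468%). ALDH1A1, a further retinaldehyde dehydrogenase, was highest at 55.3% ± 1.91. Among uptake and binding genes STRA6, the membrane receptor for retinol carried in blood, held both ends, at 1.65% for its start 5 and 28.7% ± 18.7 for its start 2. Of the coregulators, which act on the receptors' targets, NRIP1 was both lowest (0.487%, start 2) and highest (3.36%, start 1). Of the target genes the lowest was MEIS1, a homeobox gene (0.528%), and the highest STRA8, a gene of meiotic entry, at its start 2 (90.4% ± 4.12, SD, n = 2), although that start had a peak within 1000 bp. Unmethylated starts without a peak numbered 12 of the 29, where 12.9% of all unmethylated starts had no peak, and no test was made of this share. The 12 were at NRIP1 (3), RBP4 (3), MEIS2 (2), ALDH1A3, HOXA4, HOXB1 and HOXD4. Neighbouring starts within NRIP1, RBP4 and MEIS2 have windows that overlap, so they are not separate measurements. The absence of a peak at an unmethylated start was thus met in synthesis, transport, coregulator and target genes as well as in the members.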

How the data were processed

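The data are from 2 replicates of untreated H9 cells. Each replicate has a deposited table that gives, for every CpG, the fraction of reads methylated (0 to 1) and the count of reads, as the authors made them. The peak list that the authors deposited is shared by both replicates and gives a score that stops at 1000, a peak signal, a −log10 q-value and the summit of each region. Trim Galore, Genrich and the build hg38, or GRCh38, are named per the submitters' processing notes. Which mapper and methylation caller were run, whether duplicates were removed and how Genrich combined the replicates is not given in the sources used here. Failed conversion reads as methylation and raises low values most.

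The fraction multiplied by the reads gave methylated reads, whole within 0.001 for every CpG. Starts, strands and sequences came from the RefSeq promoter table (GRCh38.p14), against which CpG positions were checked. All 10 genes matched by symbol. Reads were summed over CpGs in each replicate, and the mean and SD taken over 2. Wilson intervals are at 95%, and a count of 0 allows 3 reads. Replicates were compared by Fisher's exact test, two-sided, with Benjamini-Hochberg adjustment over all starts or peaks tested and a threshold of 0.05 (Python 3.11.15, scipy 1.17.1), after a check on simulated data. The text names all members, all their peaks by value or range, and in each role of the other genes the lowest, the highest and those not under 20% or without a peak. Members and lists were chosen with earlier results of these data known. Comparisons over peaks or starts used autosomes only, and the starts were those of protein-coding genes. Alternatives covered window, read minimum, weighting, body limits, peak distance and significance, and each replicate left out. Added after the data were seen were the outermost start alone and the tables without CpGs marked x.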

Additional observations from a re-analysis of the deposited data

How the results depend on the processing

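The count of 12 member starts under 20% was the same with windows of 250 and 1000 bp, at least 10 or 50 reads, equal weight per CpG and either replicate left out. With only the outermost start of each gene it was 8 of 9. Without replicate 1 the member median was 1.99%, and start minus body was −25.0 points over 9 genes. Member peaks under 20% then numbered 33 and other retinoid starts under 20% 30. Without replicate 2 these values were 0.955%, −16.7 points over 7 genes, 33 and 29. The member median was 2.34% within 1000 bp, and start minus body was −34.4 points without CpGs in peaks and −64.5 points from 5000 bp. Member starts with a peak, 7 of 19, numbered 6 with summits within 500 bp, 9 within 2000 bp, 4 with peaks above the median −log10 q, and 4 of 10 with the outermost start only. Member peaks under 20% were 15 of 17 above that median, and other retinoid starts under 20% were 19 of 20 with the outermost start only. Over the genome, peaks that differed between replicates numbered 1847, not 3210, with the library shift removed, and starts 2643 within 250 bp and 6303 within 1000 bp, not 4401. The causes of these changes were not tested. No result reversed. No paired analysis was possible because there is only 1 group. Depth limits the starts of RARB and ALDH1A2 that were not measured and the level of CYP26C1, while RXRB lies in a stretch without reads. The single peak list gives no replicate check of accessibility.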
